A study of Rattus norvegicus with 6 samples.

Results

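Immediate early genes are switched on quickly, without new protein synthesis, when a cell meets a growth factor, a cytokine, mechanical strain or damage. Kinases of the MAPK and protein kinase A pathways act on factors already bound at their promoters, among them serum response factor with its Elk partners and the factor CREB, and the transcripts last only briefly. In liver these genes are known for their surge after partial hepatectomy and during perfusion or isolation of hepatocytes, so their level in a dissected liver can also record the moments before the tissue was frozen. Of the genes tested here, 10 made up the set: the AP-1 subunits Fos, Jun and Junb, the zinc finger factors Egr1 and Klf6, the nuclear receptor Nr4a1, the feedback regulators Dusp1 and Zfp36, and the early response genes Ier2 and Ier3. The members were the probes whose RefSeq accession belongs to one of these symbols, 15 of 61657 non-control probes. All 10 genes were among the 10257 genes tested, and 14 of their 15 probes passed the filter on dim probes. The other probe, A_64_P131051 of Fos, was not well above background in any of the 6 livers.

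Liver RNA came from 6 male Sprague-Dawley (Crl:CD(SD)) rats, each on 1 single-colour array. There were 3 rats given o-anthranilic acid (a small aromatic amino acid formed when tryptophan is degraded) at 1000 mg/kg/day, against 3 rats given corn oil alone, and the labels name no other agent for either group. All were bought at 5 weeks of age and kept on a basal diet with 12 h of light and 12 h of dark, and dosing lasted 9 weeks in 1 label whereas measurement was at 28 days in another. Time of day at sampling, feeding state and method of killing are not given in the sources used here. All 10 hepatocyte markers looked for were tested, and albumin (Alb) was well above background in every liver.

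Signals are given on the log2 scale relative to the 75th percentile of the probes on the same array, so that 0 is the 75th percentile and 1 unit is a doubling. Differences are anthranilic acid minus corn oil. A gene with several probes is represented by the brightest, and signals of different probes are not set against each other. Adjusted p-values are from limma, adjusted across the 33428 tested probes (Benjamini-Hochberg) with a threshold of 0.05. The 3 rats of a group are separate animals, so the spread within a group holds the difference between animals as well as the error of the array. In the anthranilic acid group it also holds any difference between slides, since rat 3 lay on a second slide with its own scan.

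None of the 10 immediate early genes passed the limma test, against 0% of all 10257 genes and 0.0329% of all probes. At an unadjusted p under 0.05 there were also 0 of 10, where 11.6% of all genes had such a p. The signals of both groups overlapped for all 10 members, whereas they did not overlap for 19.8% of all genes. Of the 10 differences, 7 were below 0 (48% of all genes), with a median of -0.26 against 0.01 over all genes. What stood out in the values was the distance between rats of the same group. Egr1 differed 5.58-fold between the highest and the lowest of the anthranilic acid rats and 8.52-fold between those of the corn oil rats. The highest of the anthranilic acid rats for Egr1 was rat 3, on the second slide.

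The proximal promoters of 4 members are shown because these genes differed most between rats, or differed together, among the members with an entry in the RefSeq promoter table. Each line gives the 250 bases before the transcription start on the GRCr8 assembly, 5′ to 3′ on the gene's own strand. Capitals mark matches, on either strand, to the CArG box bound by serum response factor, to TGACNTCA (the cyclic AMP response element and its variant in the Jun promoter), to TGANTCA (the AP-1 site) and to GCGNGGGCG (the EGR site).
Egr1, chr18:26736828-26737077, plus strand: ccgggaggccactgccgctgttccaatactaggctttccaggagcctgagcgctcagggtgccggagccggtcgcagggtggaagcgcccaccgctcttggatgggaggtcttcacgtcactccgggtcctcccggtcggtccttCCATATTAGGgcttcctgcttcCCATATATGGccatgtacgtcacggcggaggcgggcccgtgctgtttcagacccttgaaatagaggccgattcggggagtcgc
Zfp36, chr1:92799109-92799358, minus strand: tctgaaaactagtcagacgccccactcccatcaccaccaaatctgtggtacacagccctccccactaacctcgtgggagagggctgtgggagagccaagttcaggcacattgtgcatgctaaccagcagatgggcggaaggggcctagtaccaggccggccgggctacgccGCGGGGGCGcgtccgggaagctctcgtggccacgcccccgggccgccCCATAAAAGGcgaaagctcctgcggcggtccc
Dusp1, chr10:17184603-17184852, plus strand: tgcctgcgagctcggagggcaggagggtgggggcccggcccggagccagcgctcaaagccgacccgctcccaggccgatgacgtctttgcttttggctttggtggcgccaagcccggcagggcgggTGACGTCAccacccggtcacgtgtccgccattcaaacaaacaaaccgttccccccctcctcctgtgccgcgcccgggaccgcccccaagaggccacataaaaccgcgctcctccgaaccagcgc
Ier2, chr19:40399123-40399372, plus strand: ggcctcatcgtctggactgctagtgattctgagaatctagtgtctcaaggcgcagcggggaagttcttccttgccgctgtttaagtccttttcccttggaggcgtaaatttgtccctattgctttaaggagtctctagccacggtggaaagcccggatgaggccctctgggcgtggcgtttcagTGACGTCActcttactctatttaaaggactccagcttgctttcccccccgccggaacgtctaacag

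The search covered 300 bases, 250 before and 50 after the start, in 33469 promoters of the table. The table held 7 of the members: Junb, Egr1, Ier2, Dusp1, Zfp36, Nr4a1 and Klf6. A CArG box was present in Egr1, Zfp36 and Klf6, 3 of 7 members, against 1.64% of all promoters. Egr1 had 2 of them, CCATATTAGG at -105 to -96 and CCATATATGG at -83 to -74, counted with the first transcribed base as 0. The Zfp36 box was CCATAAAAGG at -32 to -23, and that of Klf6 was CCTTTAATGG at -201 to -192. TGACNTCA was present in Ier2, Dusp1 and Klf6, 3 of 7, against 10.2% of all promoters, as TGACGTCA in Ier2 and Dusp1 and as TGACATCA in Klf6. GCGNGGGCG was present in Zfp36 and Nr4a1, against 4.98%, and TGANTCA in 0 of 7 members, against 7.33%. The TATA sequence TATAAA, not put in capitals, was found in Junb (14.2% of all promoters). These matches describe letters in the windows and were not measured as binding.

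**Figure D1:**
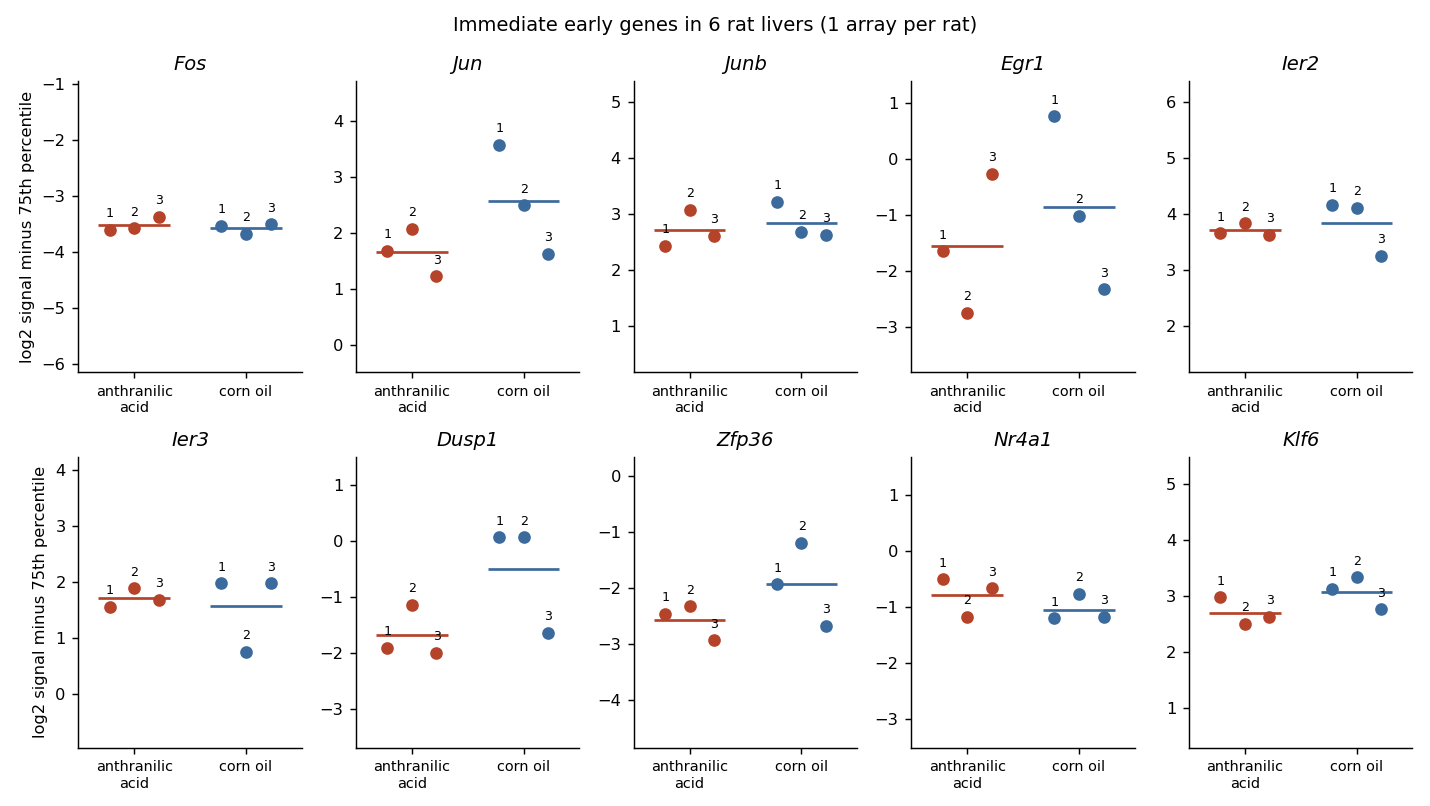
Signal of each immediate early gene in each of the 6 livers, as log2 signal minus the array's 75th percentile; points are rats with their replicate number, bars are group means, and every panel spans the same number of log2 units. Egr1 spans from -2.74 to -0.26 in anthranilic acid rats and from -2.32 to 0.77 in corn oil rats, whereas Fos stays between -3.68 and -3.37 in all 6.

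Among the AP-1 subunits, Jun, the DNA-binding partner of Fos, was at 1.68, 2.07 and 1.22 in anthranilic acid rats 1, 2 and 3, against 3.57, 2.49 and 1.62 in corn oil rats 1, 2 and 3. Corn oil rat 1 was the highest of the 6, and corn oil rat 3 lay inside the range of the treated rats. The difference was -0.90 (SE 0.50, 95% interval -2.10 to 0.30, limma adjusted p = 0.492). It was -0.40 without corn oil rat 1 and -1.37 without corn oil rat 3. Junb, a partner that can also restrain Jun, was at 2.43, 3.07 and 2.61 in anthranilic acid rats, against 3.22, 2.68 and 2.63 in corn oil rats. Its order of rats differed from that of Jun in the treated group, where both had rat 2 highest but Junb had rat 1 lowest. The Junb difference was -0.14 (SE 0.23, 95% interval -0.69 to 0.41, limma adjusted p = 0.828).

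Fos, the member of the set best known as a marker of recent stimulation, was at -3.61, -3.58 and -3.37 in anthranilic acid rats, against -3.54, -3.68 and -3.51 in corn oil rats. All 6 livers lay within a narrow band, and neither group stood above the other. Its processed signal was 42.1 to 47.3 in anthranilic acid rats and 40.9 to 44.9 in corn oil rats, beside the lowest signal well above background on any array, which lay between 20.5 and 28.0. The difference was 0.06 (SE 0.10, 95% interval -0.19 to 0.31, limma adjusted p = 0.852). A signal this close to background can understate a fold change.

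Egr1, a zinc finger factor induced through its CArG boxes, was at -1.64, -2.74 and -0.26 in anthranilic acid rats, against 0.77, -1.01 and -2.32 in corn oil rats. Its processed signal was 165.9, 75.3 and 407.9 in the treated rats and 893.5, 260.3 and 100.7 in the corn oil rats. Rats of both groups were thus interleaved over the whole span, with corn oil rat 1 highest and anthranilic acid rat 2 lowest. The difference of -0.70 (SE 0.92, 95% interval -2.92 to 1.52, limma adjusted p = 0.778) was smaller than the SD within either group, 1.24 in anthranilic acid rats and 1.55 in corn oil rats (n = 3 each). Without corn oil rat 1 it was 0.11, and without corn oil rat 3 it was -1.43.

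Klf6, a Krüppel-like zinc finger factor, was at 2.98, 2.51 and 2.63 in anthranilic acid rats, against 3.14, 3.34 and 2.77 in corn oil rats. Only anthranilic acid rat 1 and corn oil rat 3 were out of order between the groups. The difference was -0.37 (SE 0.19, 95% interval -0.83 to 0.08, limma adjusted p = 0.462), and -0.25 without corn oil rat 2. Nr4a1, the orphan nuclear receptor also called Nur77, was at -0.50, -1.17 and -0.66 in anthranilic acid rats, against -1.20, -0.76 and -1.17 in corn oil rats. It was the member with the largest positive difference, 0.27 (SE 0.21, 95% interval -0.24 to 0.78, limma adjusted p = 0.620). It was 0.13 without anthranilic acid rat 1 and 0.46 without anthranilic acid rat 2. Corn oil rat 1, highest for Jun and Egr1, was the lowest of the 6 for Nr4a1.

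Dusp1, the phosphatase that switches MAP kinases off again and is also a glucocorticoid target, had the largest difference of the 10. It was at -1.91, -1.14 and -2.00 in anthranilic acid rats, against 0.07, 0.07 and -1.64 in corn oil rats. Corn oil rats 1 and 2 lay above all treated rats, and corn oil rat 3 lay among them. The difference was -1.18 (SE 0.51, 95% interval -2.41 to 0.05, limma adjusted p = 0.419), a mean 2.27-fold lower in treated rats. Zfp36, which binds AU-rich elements and shortens the life of early transcripts, was at -2.46, -2.33 and -2.94 in anthranilic acid rats, against -1.94, -1.20 and -2.68 in corn oil rats. The same corn oil rat, rat 3, lay inside the treated range. The Zfp36 difference was -0.64 (SE 0.38, 95% interval -1.55 to 0.28, limma adjusted p = 0.520). It was -0.27 without corn oil rat 2, -1.01 without corn oil rat 3 and -0.39 after normexp background correction.

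Ier2, a small nuclear protein of the early response, was at 3.65, 3.83 and 3.62 in anthranilic acid rats, against 4.16, 4.11 and 3.25 in corn oil rats. Again corn oil rats 1 and 2 were above, and corn oil rat 3 below, all 3 treated rats. The difference was -0.14 (SE 0.25, 95% interval -0.75 to 0.46, limma adjusted p = 0.842). Ier3, which acts on survival signalling, was at 1.56, 1.89 and 1.69 in anthranilic acid rats, against 1.98, 0.75 and 1.98 in corn oil rats. Here corn oil rat 2 was the lowest of the 6, as it was for Fos, whereas the other 2 corn oil rats were the highest. The Ier3 difference was 0.14 (SE 0.34, 95% interval -0.69 to 0.97, limma adjusted p = 0.889), and -0.27 without corn oil rat 2.

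**Figure D2:**
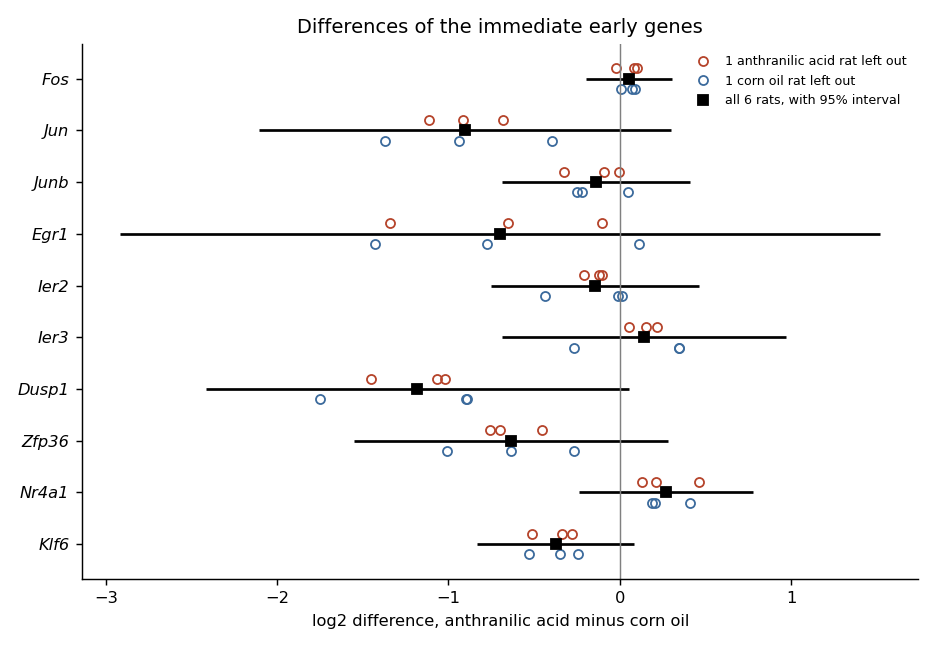
Log2 difference of each immediate early gene, anthranilic acid minus corn oil, with its 95% interval from limma (black squares and lines) and the value when 1 rat is left out (open circles, red for an anthranilic acid rat and blue for a corn oil rat). All 10 intervals include 0; the Egr1 values with 1 rat left out run from -1.43 to 0.11, and those of Dusp1 from -1.75 to -0.89.

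Anthranilic acid rat 3 lay on a second slide, and the other 5 arrays shared slide 1 and its scan. Within slide 1 the differences were -0.02 for Fos, -0.68 for Jun, -0.09 for Junb, -1.34 for Egr1, -0.34 for Klf6 and 0.21 for Nr4a1. They were -1.02 for Dusp1, -0.45 for Zfp36, -0.10 for Ier2 and 0.15 for Ier3 there. None passed limma within the slide. The treated arrays of slide 1 occupied its row 2 and the corn oil arrays its row 1, and the effect of row cannot be told apart from that of treatment on that slide.

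The spread between rats of a group was wide for most members. The within-group SD, pooled over both groups, was 1.41 for Egr1, 0.78 for Dusp1, 0.75 for Jun, 0.57 for Zfp36 and 0.52 for Ier3. These 5 of 10 lay above the 90th percentile of all tested genes, 0.40, and Egr1 stood at the 99.7th percentile. The SD of Ier2 was 0.37, of Junb 0.33, of Nr4a1 0.30 and of Klf6 0.27, all above the median of all genes, 0.15. Fos, at 0.11 and the 33.8th percentile, was the 1 member below that median. The median over the members was 0.44, close to the 0.43 of the glucocorticoid and stress hormone responsive genes read below. SDs were larger in corn oil rats than in anthranilic acid rats for 7 of 10 members, the exceptions being Fos, Junb and Nr4a1, against 44.4% of all genes, and this contrast was not tested.

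**Figure D3:**
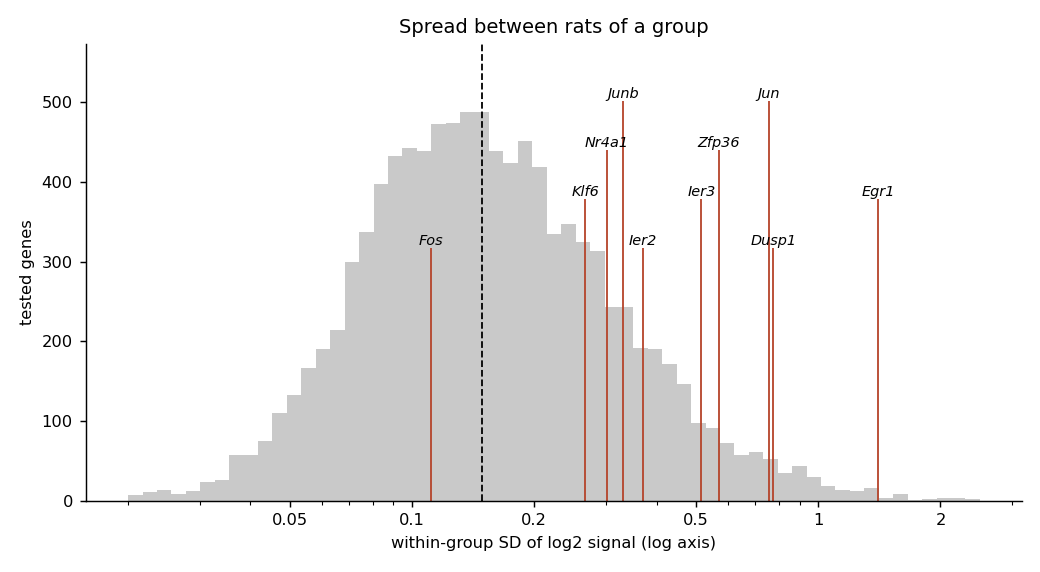
Within-group SD of log2 signal, pooled over anthranilic acid and corn oil rats, on a log axis: grey bars count the tested genes, the dashed line is their median (0.15), and red lines mark the members. Egr1, Dusp1, Jun, Zfp36 and Ier3 lie in the upper tail, and Fos lies left of the median.

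The rats at the extremes were the same for several members. Anthranilic acid rat 2 was the highest of its group for 6 members, namely Jun, Junb, Ier2, Ier3, Dusp1 and Zfp36 (32.1% of all genes), although it had the lowest Egr1. Corn oil rat 3 was the lowest of its group for 7 members, namely Jun, Junb, Egr1, Ier2, Dusp1, Zfp36 and Klf6, where it was the lowest for 35.7% of all genes. Corn oil rat 1 was the highest of all 6 for 5 members, Jun, Junb, Egr1, Ier2 and Dusp1, against 17.3% of all genes. For Dusp1 corn oil rats 1 and 2 were nearly tied, both at 0.07, and for Ier2 they were close, at 4.16 and 4.11. Averaged over the 10 members, the deviation from each gene's mean over the 6 livers was -0.20, -0.18 and -0.17 in anthranilic acid rats 1, 2 and 3, against 0.61, 0.26 and -0.33 in corn oil rats 1, 2 and 3. The treated rats were close together by this average, and the corn oil rats lay on both sides of them. The average hides the spread of single members, since Egr1 differed 5.58-fold among the treated rats. By the median over the members, anthranilic acid rats 1, 2 and 3 were at -0.16, -0.04 and -0.16, against 0.36, 0.27 and -0.34 in corn oil rats. Over all tested probes, corn oil rat 3 also lay apart from its group: the first principal component, with 33.5% of the variance, was 23.6, 40.5 and 23.8 in anthranilic acid rats 1, 2 and 3, against -40.8, -37.0 and -10.1 in corn oil rats 1, 2 and 3. On it corn oil rat 3 lay between the treated rats and the other corn oil rats. Members did not share a single order: Egr1 was high in anthranilic acid rat 3, where Jun, Dusp1 and Zfp36 were lowest of the 6. That rat lay alone on the second slide, so slide and animal cannot be told apart for it. Handling before sampling has no measure of its own in the labels, so its part in this spread was not tested.

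Separate probes of 1 gene followed each other more closely for Jun and Junb than for Klf6, relative to their span. The 2 Jun probes put the 6 rats in the same order. They each spanned over 2 log2 units across the 6 livers (2.36 and 2.24), whereas the gap between them varied by 0.29. For Junb the spans were 0.93 and 0.79 and the gap varied by 0.15, with corn oil rat 1 highest and anthranilic acid rat 1 lowest at both probes. The 3 Klf6 probes spanned 0.83 to 0.96, with gaps that varied by 0.21 to 0.53. The Klf6 probe A_42_P677623 was lowest in anthranilic acid rat 3, and the other Klf6 probes were lowest in anthranilic acid rat 2. Their differences were -0.33 to -0.40, that of the second Jun probe was -0.85 and that of the second Junb probe -0.15. Probes of a gene were read from the same RNA on the same array, so they bear on the error of a spot and not on that of the RNA or the hybridisation.

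**Figure D4:**
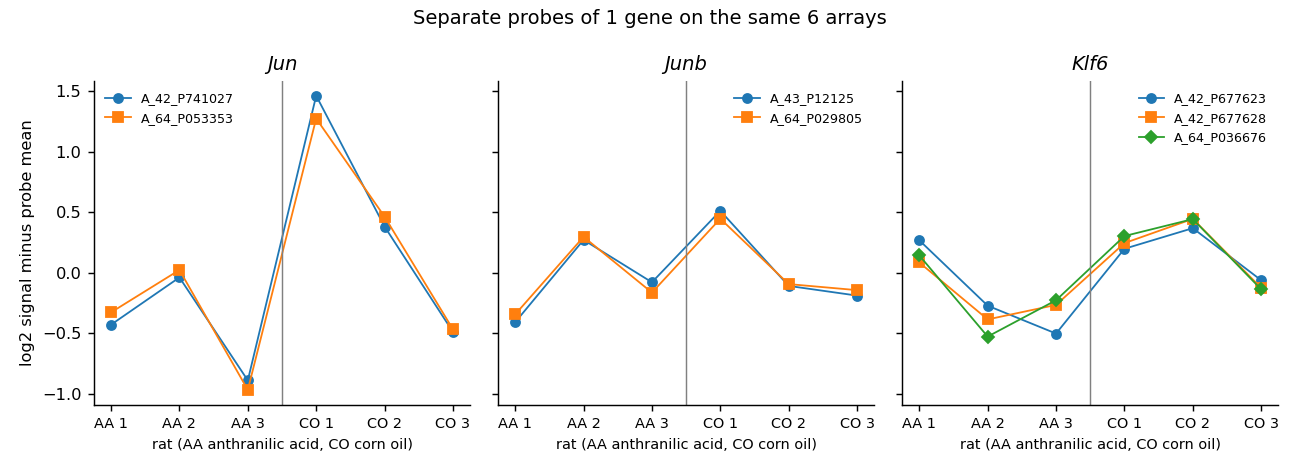
Log2 signal of each tested probe of Jun, Junb and Klf6, minus that probe's mean, in anthranilic acid rats (AA, left of the line) and corn oil rats (CO, right). The gaps between lines vary by 0.29 for Jun, 0.15 for Junb and 0.21 to 0.53 for Klf6, whose probes differ in which treated rat is lowest.

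Of 49 other genes of the early response, 40 were tested. No probe was matched for Fosb and Tnfaip3, and Fosl1, Egr2, Egr3, Nr4a3, Dusp2, Maff and Arc did not pass the filter on dim probes. By limma 0 of 40 passed in either direction. At an unadjusted p under 0.05 there were 5 lower (6.15% of all genes) and 1 higher (5.47%), and the groups did not overlap for 5 of 40, a smaller share than the 19.8% of all genes. The median difference was -0.04. Ccn2, the matricellular connective tissue growth factor, was at -2.78, -3.30 and -2.88 in anthranilic acid rats, against -2.11, -2.02 and -2.06 in corn oil rats. It thus separated the groups, with a difference of -0.93 (SE 0.15, limma adjusted p = 0.150). After normexp background correction the Ccn2 difference was -0.55, so its size depends on how dim signals are treated. Gadd45b, a stress sensor that binds MAP kinase kinases, was at -0.38, -0.65 and 0.10 in anthranilic acid rats, against 0.52, 0.65 and 0.25 in corn oil rats, a difference of -0.78 (SE 0.21, limma adjusted p = 0.298).

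The next of this list by p were Klf4 at 0.43, Cebpd at -0.64, the antiproliferative gene Btg2 at -0.46, the NF-kappaB inhibitor Nfkbia at -0.62, Nr4a2 at -0.30 and the kinase Plk3 at -0.73. Their limma adjusted p-values ran from 0.360 to 0.426. The AP-1 relatives Fosl2 and Jund stood at 0.10 and 0.24. Atf3, a stress-induced partner of Jun, was at -0.81, -0.96 and -2.19 in anthranilic acid rats, against 0.38, -0.31 and -1.34 in corn oil rats, with a difference of -0.90 (SE 0.53, limma adjusted p = 0.520). Like Jun, it had corn oil rat 1 highest and anthranilic acid rat 3 lowest. Myc was at 1.80, 0.50 and 0.73 in anthranilic acid rats, against 1.72, 2.31 and 0.14 in corn oil rats, a difference of -0.38 (SE 0.61, limma adjusted p = 0.824). The within-group SD was above the 90th percentile of all genes for 13 of the 40, with a median of 0.32.

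Genes that act on early promoters had a lower median spread. Of 23 kinases and factors listed, 19 were tested and 0 passed by limma, with 0 at an unadjusted p under 0.05. Their median difference was -0.07, and their median within-group SD 0.13, with 1 of 19 above the 90th percentile of all genes. The MAP kinase Mapk3 stood at -0.18, the cyclic AMP modulator Crem at -0.20 and the ribosomal S6 kinase Rps6ka1 at 0.15. Another Mapk3 probe gave -0.00457.

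Glucocorticoid and stress hormone responsive genes were read beside the members because of the question of handling before sampling, and Dusp1 is one of them. By limma 0 of 17 tested passed, whereas 5 had an unadjusted p under 0.05, all lower (6.15% of all genes), and the groups did not overlap for 5 of 17 (19.8% of all genes). The list shares Per1, Sgk1, Gadd45b and Cebpd with the other early genes and Dusp1 with the members. Its median difference was -0.64. For 9 of the 17 the within-group SD was above the 90th percentile of all genes, with a median of 0.43, beside 5 of 10 and 0.44 for the members. Tsc22d3, the glucocorticoid-induced leucine zipper, was at 2.08, 1.14 and 0.98 in anthranilic acid rats, against 2.36, 2.56 and 2.54 in corn oil rats, a difference of -1.09 (SE 0.29, limma adjusted p = 0.293). Zbtb16, a zinc finger repressor, was at -3.48, -4.22 and -2.96 in anthranilic acid rats, where 2 of 3 livers were well above background, against -1.55, -2.86 and -0.69 in corn oil rats. Its difference was -1.85 and, after normexp background correction, -1.02, so its size depends on how dim signals are treated. Pck1, the gluconeogenic carboxykinase, had a difference of -0.64 (SE 0.16). Corn oil rat 3 lay above all treated rats for Tsc22d3, Zbtb16 and Pck1, unlike for Dusp1, where it lay among them. These 3 genes were named for their small p, which favours separated groups. For other genes of the list, among them Sgk1, Per1, Igfbp1 and Sds, corn oil rat 3 was not above all treated rats either. The glucocorticoid receptor gene Nr3c1 stood at 0.07.

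**Figure D5:**
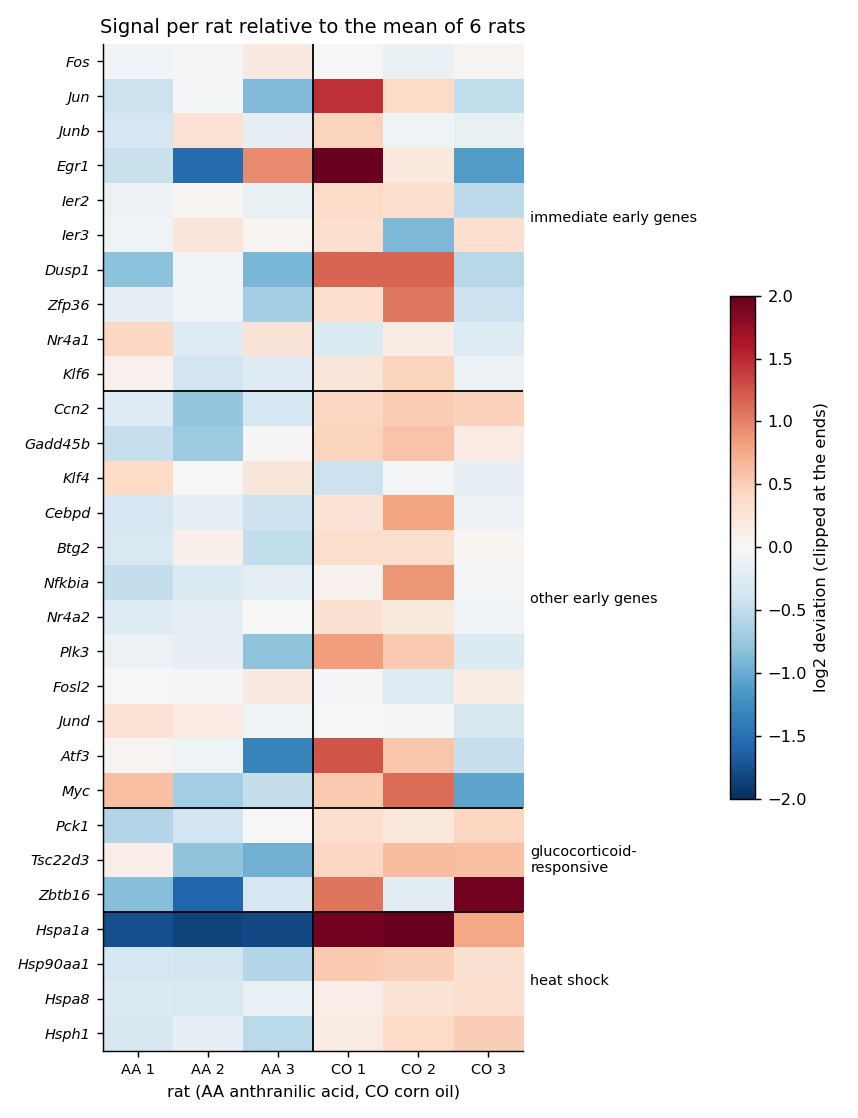
Log2 signal of each gene in each liver minus the gene's mean over the 6 livers, in anthranilic acid rats (AA, left of the line) and corn oil rats (CO, right); genes in 2 lists are drawn once and the colour scale is clipped at its ends. For each of the 4 heat shock genes drawn, the 3 anthranilic acid rats lie below the 3 corn oil rats, whereas the groups overlap for Jun, Egr1 and Dusp1. These 3 genes, and also Hspa1a, vary inside the corn oil group.

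Heat shock genes, another acute response, had groups that did not overlap for 8 of 11 tested genes (19.8% of all genes), and 8 of 11 had an unadjusted p under 0.05, all lower (6.15% of all genes), although 0 passed by limma. Hspa1a, the inducible Hsp70 with a near-identical copy, was well above background in 0 of 3 treated livers, against 3 of 3 corn oil livers. Its difference was -3.61 (SE 0.46, limma adjusted p = 0.107). With each treated signal raised to the lowest well above background on its array, it was 9.90-fold lower in treated rats. After normexp background correction its difference was -1.84, so the size depends on how dim signals are treated. Its corn oil signals were -0.86, -0.07 and -2.02, lowest in rat 3, as for Jun and Dusp1. The list was divided in this: Hspb1, Hsp90aa1, Hspd1 and Hspb8 were also lowest of the corn oil rats in rat 3. By contrast, 3 of the 11 genes, Hsph1, Hspa8 and Bag3, were highest of all 6 livers in that rat. Hsp90aa1 was at -0.86, Hsph1 at -0.68 and Hspa8 at -0.49. The pooled within-group SD had a median of 0.12 over the list, with 2 of 11 above the 90th percentile of all genes.

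Clock genes follow the time of day. Of 12 tested, 0 passed by limma and 2 had an unadjusted p under 0.05, both higher (5.47% of all genes): Nr1d1 at 0.60 (SE 0.15) and Tef at 0.37 (SE 0.11). Per3 stood at 0.46 and Npas2 at -0.52, with other Npas2 probes from -0.69 to 0.05. Bmal1, the core activator, was at 1.89, 1.96 and 1.88 in anthranilic acid rats, against 1.94, 2.04 and 1.97 in corn oil rats, a narrow band in both groups. Other clock genes were less steady: 3 of 12 had a within-group SD above the 90th percentile of all genes, and the median SD was 0.30. Per1, both a clock gene and an early gene, was at -2.14, -3.94 and -3.94 in anthranilic acid rats, against -2.24, -2.12 and -2.80 in corn oil rats, and was well above background in 2 of the 3 treated livers.

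Cells other than hepatocytes also express early genes, and in whole liver fewer cells of a type cannot be told apart from less RNA per cell. The summed linear signal, in multiples of the array's 75th percentile, of 8 Kupffer cell and macrophage markers was 109 to 143 in anthranilic acid rats and 120 to 144 in corn oil rats, and that of 4 endothelial markers 43.7 to 48.3 and 46.9 to 47.5. That of 7 lymphocyte markers was 3.46 to 4.77 in anthranilic acid rats and 3.13 to 3.42 in corn oil rats, and that of 2 neutrophil markers 1.72 to 3.51 and 1.49 to 2.47. Such sums are weighted to their brightest probes: Clec4f for macrophages, Kdr for endothelium and Ptprc for lymphocytes. They say little about the dimmer markers. The neutrophil genes Csf3r, Cxcr2 and Mmp8 were not tested, being too dim. The summed signal of 5 erythroid markers was 925 to 1192 in anthranilic acid rats and 633 to 1098 in corn oil rats, with corn oil rat 3 highest of its group. The largest marker differences by p were Lyz2 at 0.53 and Cd163 at -0.40 for macrophages. Lyz2 was the only macrophage marker above 0, and 7 of the 8 were below 0, with a median difference of -0.17. Anthranilic acid rat 2 was the lowest of all livers for 7 of the 8, and the sum of 109 was from this rat. The largest differences were Lyve1 at -0.34 and Eng at 0.21 for endothelium, and Cd79b at 1.11 and Cd3g at 0.52 for lymphocytes. S100a8 and S100a9 of neutrophils stood at 0.60 and 0.52, and Alas2 and Hba-a1 of the red cell lineage at 0.56 and 0.33. Epcam and Krt19 of cholangiocytes were at -0.53 and 0.60. Vim and Col1a1 of stellate cells and matrix were at 0.25 and 0.24. Of the 6 stellate and matrix markers, however, 3 were above and 3 below 0, with a median difference of -0.0075. The hepatocyte genes Apoa1 and Tf were at -0.57 and -0.12. None of these passed limma, and their part in the members' values was not tested.

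Outside all of these lists, the genes with a pattern most like the mean of the 10 members over the 6 livers were Ccl27 (Pearson r = 0.987), Prune1 (0.986), Mertk (0.985), Sptlc1 (0.983), Hace1 (0.982) and Sirt4 (0.981). The r is a description over 6 arrays, which share their scaling and, for 5 of them, a slide. These 6 genes were picked for the highest r, so their r is high by selection. The mean was not a pattern of all members. Fos, Ier3 and Nr4a1 correlated with the mean of the other members at -0.31, -0.33 and -0.31, and the rest at 0.54 to 0.87. Ccl27, a chemokine, was at 1.21, 1.25 and 1.15 in anthranilic acid rats, against 1.81, 1.59 and 1.13 in corn oil rats, so that corn oil rat 3 lay just below the treated rats. The differences of the 6 genes ran from -0.31 to -0.07, and none passed limma.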

How the data were processed

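Spot intensities were deposited by the authors as 1 Agilent Feature Extraction file per rat, made with version 10.7.1.1 per the file headers (10.7 per the submitters' processing notes). This processed signal is background-subtracted, with no scaling across arrays. A table that the authors deposited holds a ratio of this signal to 1 value per array, which differed from that array's 75th percentile by 0.0355% to 0.126%, with column medians of 0.0887 to 0.0976; it served as an alternative.

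The processed signal was log2-transformed and each array's own 75th percentile (non-control probes) subtracted, and 14 outlier spots of 369942 were left out. Of the probes, 53.3% to 58.0% were well above background per array, and none was saturated. A probe was tested if well above background on all 3 arrays of a group and unflagged on 2 or more of each. Accessions were matched without version to the RefSeq table of GRCr8, which named 27460 probes; the headers give rn4. The comparison used limma 3.58.1 under R 4.3.3 (lmFit, eBayes, 4 residual and 2.30 prior degrees of freedom, two-sided), which was checked on simulated data; intervals use the same fit.

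The members and lists were chosen with earlier results of these data known. Named genes were all members, of the other early genes the 8 with the smallest p and 7 fixed names, the 4 with the smallest p of the regulator, glucocorticoid, heat shock and clock lists, 2 per marker list, and the 6 most like the members. Of the regulators so chosen, 1 is not reported here. Nr3c1, Bmal1, Per1, Alb and genes that were not tested were named after their values were seen. Alternatives covered background correction, scaling, filter, the authors' table, variance model, slide, replicate number, probe choice and leaving out each rat. Replicate numbers do not pair the rats (deviations of same-numbered rats correlated at 0.0725, -0.0507 and -0.0430).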

Additional observations from a re-analysis of the deposited data

How the results depend on the processing

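Under 18 alternatives none of the 10 members passed limma. The smallest adjusted p was 0.206, for Dusp1. The counts of members, other early genes, regulators, glucocorticoid-responsive genes and clock genes that passed were 0 in every fit run. The count of heat shock genes was 1 after normexp correction, 1 under the trended robust model and 0 to 1 when 1 rat was left out, against 0. Over all probes, 11 passed. There were 50 with normexp, 45 with a trended robust variance, 29 with array weights, 6 with slide as a fixed block, 2 without the filter on dim probes and 2 with the filter requiring all 6 arrays. Leaving out 1 rat gave 2 to 8. With the replicate number as a block there were 2, and that block changed no other count. The direction changed for Fos with slide as a fixed block, equal to leaving out anthranilic acid replicate 3 (-0.020), for Junb (0.049), Egr1 (0.11) and Ier2 (0.015) without corn oil replicate 1, and for Ier3 (-0.27) and Myc (0.076) without corn oil replicate 2. With 1 rat left out in turn, the differences ran from -0.020 to 0.10 for Fos, -0.32 to 0.049 for Junb, -1.43 to 0.11 for Egr1, -0.44 to 0.015 for Ier2, -0.27 to 0.35 for Ier3 and -1.01 to 0.076 for Myc. The cause was not tested. Of 1060 values of 59 named genes, 7 changed direction and 3 came to pass, those of Hspa1a and Hsp90aa1. Signals near background, such as Fos, and 3 rats per group limit the precision.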
